A study of Homo sapiens with 6 samples.

Results

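TNFRSF19 and 9 other receptors of the tumour necrosis factor (TNF) receptor family were described in the transcriptome of A549 cells: TNFRSF1A, TNFRSF10A, TNFRSF10B, TNFRSF10D, TNFRSF12A, TNFRSF21, TNFRSF11B, FAS and LTBR. The 10 genes were taken by symbol from a count table of 26485 symbols. TNFRSF19 was selected on its lower counts with sgRNA #2 in these same libraries, and the other 9 were added as relatives with their counts already known. Their levels in this contrast are therefore given as a description, with no p-value, and counts of these genes past a cut-off only restate the values they were picked with.

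A549 is a human lung carcinoma line of epithelial origin. All 6 libraries came from A549 cells that stably carried dCas9-KRAB, a Cas9 without cutting activity fused to a repressor domain, together with rat Nkx2-1, the lung transcription factor, delivered by a lentivirus under the PGK promoter. The 3 sgRNA #2 libraries came from cells transiently transfected with a synthetic guide against the first intron of SFTPB, at a place where NKX2-1 binds, and the 3 sgRNA control libraries from cells transfected with a non-targeted guide. No library lacked dCas9-KRAB or Nkx2-1, so neither of them could be set against untreated cells, and both groups rest on 1 cell line.

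TNF family ligands bind receptors of this family at the cell surface, and the receptors pass the signal on through adaptor proteins. Receptors with a death domain, such as FAS, TNFRSF10A and TNFRSF10B, can recruit FADD and caspase-8 and start apoptosis, while others recruit TRAF proteins and activate NF-kB and JNK. TNFRSF19, also called TROY, has no death domain, binds TRAF proteins, can replace NGFR in the Nogo receptor complex of neurons, and is a Wnt target gene and a stem cell marker in several epithelia.

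The libraries held 6047554 to 7584611 counts in genes. The detection floor, taken as 3 counts, corresponded to 0.396 to 0.496 CPM (counts scaled to library size) by the total gene counts of each library. All other CPM values used these totals after adjustment by the TMM factors of edgeR, so the floor in CPM is on a different scale. SFTPB, the targeted gene, had 2683, 2877 and 3155 counts with the sgRNA control and 40, 42 and 49 counts with sgRNA #2, which is 62.4-fold lower (log2 fold change -5.96, SE 0.101). Each of the 6 epithelial markers reached 3 counts in at least 1 library, at a summed level of 3579 to 4543 CPM in the control and 3378 to 4156 CPM with sgRNA #2. KRT19 never exceeded 4 counts, and CDH1, the adhesion protein E-cadherin, was lower with sgRNA #2 (188 ± 5.07 against 238 ± 16.0 CPM, SD, n = 3, log2 fold change -0.34, adjusted p = 0.00728 by the quasi-likelihood test of edgeR with Benjamini-Hochberg adjustment). Its part in the values below was not tested. Of the leukocyte markers, 2 of 4 reached 3 counts, with PTPRC and CD3E at 0 in every library and nearly all of the summed 62.5 to 68.3 CPM (control) and 66.0 to 68.3 CPM (sgRNA #2) in CD68, which is also expressed by non-immune cells. Of the fibroblast and endothelial markers, 3 of 5 reached 3 counts, with CDH5 at 0, and the list summed to 6.65 to 9.22 CPM in the control and 6.15 to 8.69 CPM with sgRNA #2.

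TNFRSF19 lies on the plus strand at chr13:23570370-23676104 of GRCh38 and has 5 annotated transcripts in GENCODE, with no other annotated gene overlapping it. Its transcripts begin in 2 places, and a partial match of sgRNA #2 lies just upstream of the more downstream of them. The pair of sites below is shown because TNFRSF19 was the only one of the 10 genes with such a match near a start site. In the guide's own target, on the minus strand at chr2:85668529-85668551 and with 1 exact site in the genome, capitals mark the 10 bases next to the PAM. In the site near TNFRSF19, on the plus strand at chr13:23579036-23579058, capitals mark the 11 bases next to the PAM that match the guide.
sgRNA #2 target with PAM: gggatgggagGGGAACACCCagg
site near TNFRSF19: ctgaaaggtGGGGAACACCCcgg

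Counted from 1 at the guide's 5′ end, the mismatches of the TNFRSF19 site were G1C, G2T, T5A, G6A and A9T. The centre of the site lay at -312 bp from the start of transcript TNFRSF19-205, and its first base lay 323, 324 and 344 bp upstream of TNFRSF19-205, TNFRSF19-202 and TNFRSF19-203. For the longer transcripts TNFRSF19-201, the canonical one, and TNFRSF19-204, the same site was intronic. The 300 bases around it, chr13:23578898-23579197 on the plus strand, held 66.3% G and C and 20 CpG dinucleotides, with the 11 matching bases and the PAM in capitals.
hg38 around the site near TNFRSF19: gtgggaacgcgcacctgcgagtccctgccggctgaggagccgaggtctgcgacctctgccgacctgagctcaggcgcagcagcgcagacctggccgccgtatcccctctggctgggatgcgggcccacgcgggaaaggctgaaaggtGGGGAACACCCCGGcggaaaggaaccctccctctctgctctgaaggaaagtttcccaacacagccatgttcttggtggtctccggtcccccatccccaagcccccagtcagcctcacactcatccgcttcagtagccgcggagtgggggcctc

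The search took the letters GGGAACACCC followed by NGG on both strands within 1000 bp of every annotated start site. It found a match for 1 of the 10 receptor genes and for 28 of the 13065 tested genes with an annotation (0.214%). For the other 9 receptor genes, the longest match next to a PAM in this window was under 8 bases. The match is a description of the letters. Whether dCas9-KRAB bound there was not measured in these libraries.

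TNFRSF19 had 67, 58 and 82 counts with the sgRNA control and 14, 11 and 13 counts with sgRNA #2. In CPM these were 10.7, 8.20 and 10.8 against 1.99, 1.65 and 2.16. All 3 sgRNA #2 libraries lay below all 3 control libraries, with no overlap, and all 6 lay above the floor of 3 counts. The mean was 9.87 ± 1.45 CPM in the control and 1.93 ± 0.261 CPM with sgRNA #2 (SD, n = 3 each), a 5.08-fold lower level (log2 fold change -2.35, SE 0.235). In bulk RNA, fewer cells that express the gene and less of its RNA per cell cannot be told apart. Ordered by log2 fold change from the most negative, TNFRSF19 had rank 23 of the 13356 tested genes, while 23.2% of the tested genes had a lower level than TNFRSF19 in the control.

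**Figure D1:**
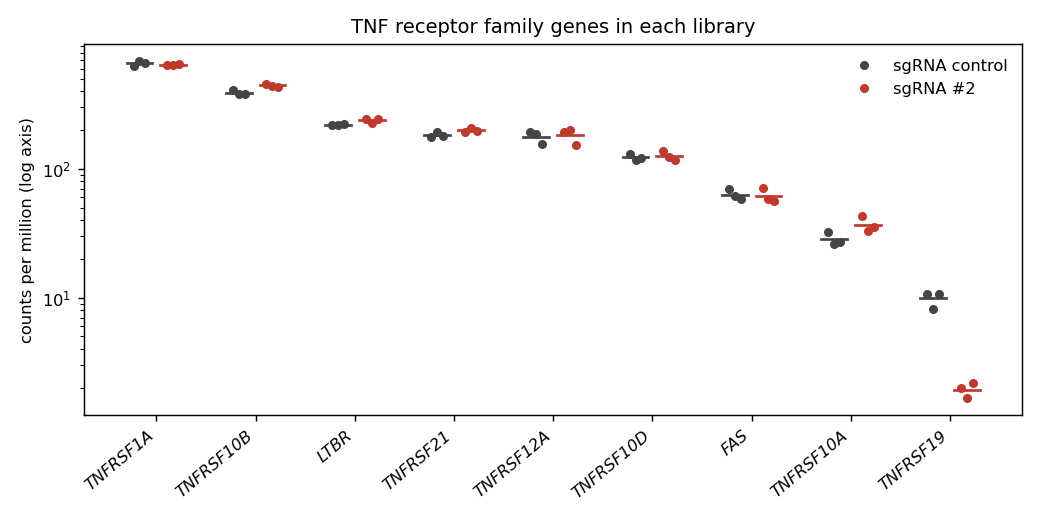
Level of each receptor gene in CPM, on a log axis, in the 3 sgRNA control and 3 sgRNA #2 libraries; each point is a library. TNFRSF19 separates by group, at 8.20 to 10.8 CPM in the control and 1.65 to 2.16 CPM with sgRNA #2, and the other genes shown lie close together in both groups.

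Past both cut-offs of the study, an absolute log2 fold change of at least 1 and an adjusted p under 0.05 by edgeR, was 1 of the 9 receptor genes with enough counts to be tested, TNFRSF19, against 0.719% of all tested genes (96 of 13356). With a block for the replicate number, the count was again 1, beside 0.913% of all tested genes. Genes called lower made up 0.689% of all tested genes and genes called higher 0.0299%. The other 8 tested receptors had log2 fold changes of -0.04 to 0.38, with SEs of 0.0613 to 0.120. Of these, 2 lay below 0 and 6 above, and the median of the 9 was 0.04 against 0.00 over all tested genes. TNFRSF11B, the secreted decoy receptor osteoprotegerin, had 0 counts in all 6 libraries and was not tested. By level, 5 of the 9 genes had groups that did not overlap, TNFRSF19 lower and TNFRSF10A, TNFRSF10B, TNFRSF21 and LTBR higher with sgRNA #2, beside 15.6% of all tested genes (8.83% lower and 6.77% higher).

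Among the death receptors, TNFRSF10A and TNFRSF10B both bind TRAIL (TNFSF10). TNFRSF10A stood at 32.6, 26.2 and 26.9 CPM in the control and at 43.0, 32.7 and 35.1 CPM with sgRNA #2. The lowest sgRNA #2 library and the highest control library nearly touched, and the log2 fold change was 0.38 (SE 0.120). TNFRSF10B stood at 409, 383 and 383 CPM in the control and at 455, 444 and 436 CPM with sgRNA #2. All 3 sgRNA #2 libraries lay above the control libraries, by a log2 fold change of 0.18 (SE 0.0613). By adjusted p under 0.05 alone, 1 of the 9 passed, TNFRSF19, beside 2.69% of all tested genes (2.22% lower and 0.464% higher). The block raised this count to 3, with TNFRSF10A and TNFRSF10B among the higher genes, beside 10.0% of all tested genes in either direction and 3.97% higher. TNFRSF10A and TNFRSF10B are close paralogs on chromosome 8 that do not overlap each other, and each overlaps genes annotated on the other strand. The counts of either may be affected by reads that fit several of these genes, which was not tested.

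TNFRSF10D, a TRAIL receptor whose death domain is truncated and which acts as a decoy, had log2 fold change 0.04 (SE 0.0739), with overlapping groups (123 ± 6.91 CPM in the control and 126 ± 10.2 CPM with sgRNA #2, SD, n = 3). FAS, the receptor of FAS ligand, also overlapped, at 57.9 to 69.6 CPM in the control and 56.2 to 70.7 CPM with sgRNA #2 (log2 fold change -0.02, SE 0.0965). FAS overlaps STAMBPL1 on its own strand and ACTA2 on the other. TNFRSF21, the death receptor DR6, stood at 176, 193 and 180 CPM in the control and at 193, 209 and 198 CPM with sgRNA #2. Its groups did not overlap by a narrow gap (192.6 against 193.4 CPM), and the log2 fold change was 0.13 (SE 0.0650).

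TNFRSF1A, the main TNF receptor of most cells and a death domain receptor that signals mostly to NF-kB, had the highest level per length of the family. It stood at 627, 690 and 661 CPM in the control and at 637, 644 and 650 CPM with sgRNA #2, with the sgRNA #2 libraries inside the range of the control (log2 fold change -0.04, SE 0.0622). LTBR, the lymphotoxin beta receptor that can activate the alternative NF-kB route, stood at 218, 220 and 225 CPM in the control and at 245, 226 and 243 CPM with sgRNA #2. Its groups did not overlap (log2 fold change 0.11, SE 0.0626), and it shares bases with SCNN1A on the other strand. TNFRSF12A, the TWEAK receptor Fn14, ranged from 155 to 192 CPM in the control and from 153 to 199 CPM with sgRNA #2 (log2 fold change 0.04, SE 0.0949), so the groups overlapped, and it overlaps CLDN6 on the other strand.

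**Figure D2:**
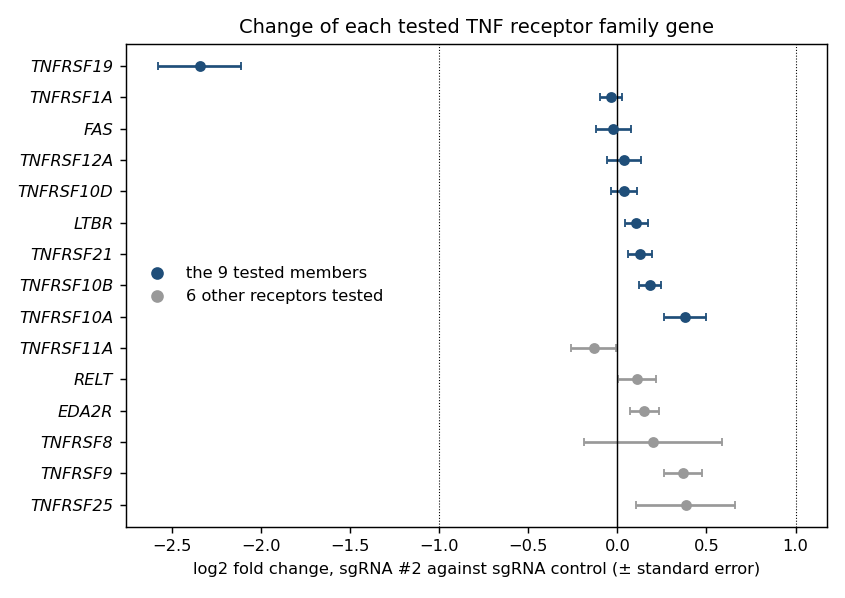
Log2 fold change, sgRNA #2 against sgRNA control, of the tested TNF receptor family genes, with bars of 1 standard error from edgeR. TNFRSF19 lies at -2.35, and the other 8 tested receptors of the 10 selected lie between -0.04 and 0.38. The 6 tested receptors from the rest of the family, also shown, lie between -0.13 and 0.38.

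Per kilobase of canonical transcript, the control levels of the 10 genes ran from 0 (TNFRSF11B) to 304 ± 14.5 CPM per kb (TNFRSF1A). TNFRSF12A (182), LTBR (104), TNFRSF10B (97.9), TNFRSF21 (51.0), TNFRSF10D (34.7), FAS (17.05) and TNFRSF10A (10.6 CPM per kb) followed TNFRSF1A. TNFRSF19 was low, at 2.22 ± 0.326 CPM per kb, rank 13 of the 15 tested family genes, and its range overlapped those of its neighbours in the order, TNFRSF11A and TNFRSF25. With sgRNA #2 it stood at 0.435 ± 0.0587 CPM per kb, rank 15 of the 15 by mean, with a range inside that of TNFRSF8, the next in the order. Summed over the 29 family genes in the table, the level was 2020 ± 35.1 CPM in the control and 2120 ± 52.3 CPM with sgRNA #2, of which TNFRSF19 made up 0.489% and 0.0912%.

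Of the genes annotated within 1 Mb of TNFRSF19 on chromosome 13, 3 with enough counts to be tested are described, all of them downstream. MIPEP, a mitochondrial peptidase 54085 bp away, had log2 fold change 0.13 (SE 0.127, adjusted p = 0.801 by edgeR), with overlapping groups (14.4 ± 0.608 CPM in the control and 15.8 ± 0.709 CPM with sgRNA #2, SD, n = 3). SPATA13, a guanine nucleotide exchange factor 303701 bp away, had log2 fold change -0.04 (SE 0.0791, adjusted p = 0.920 by edgeR), and PARP4, a poly(ADP-ribose) polymerase of vault particles 744827 bp away, had -0.01 (SE 0.0741, adjusted p = 0.979 by edgeR). Past both cut-offs were 0 of the 3 by edgeR and by DESeq2, and 0 had an unadjusted p under 0.05 by edgeR.

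**Figure D3:**
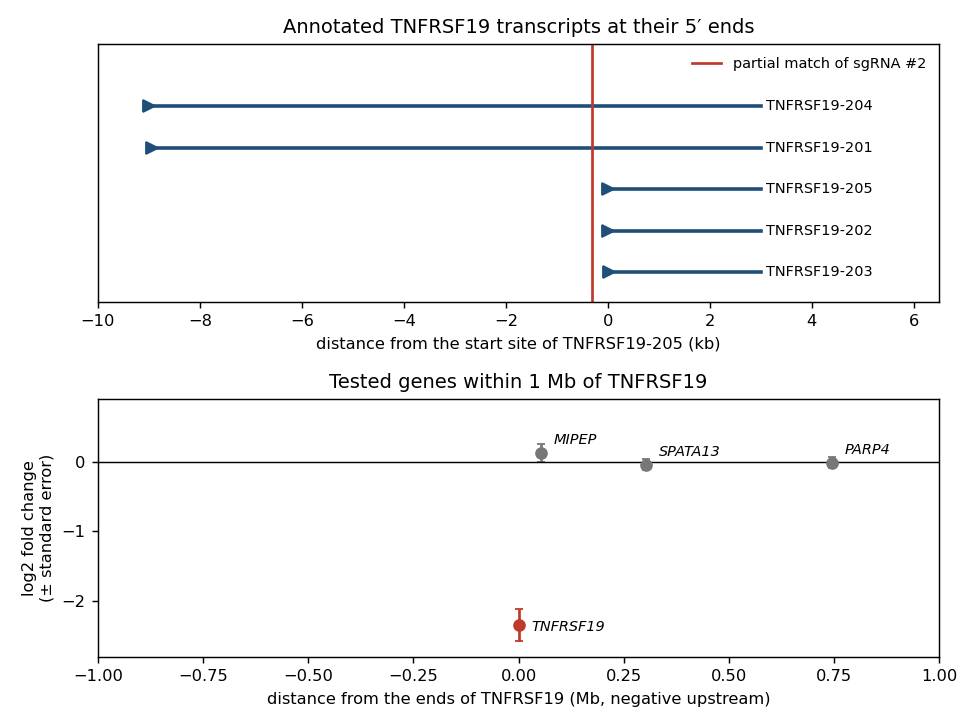
Upper panel, the annotated 5′ ends of the 5 TNFRSF19 transcripts in kb from the start of TNFRSF19-205, with the partial match of sgRNA #2 as a line; lower panel, log2 fold change with 1 standard error of TNFRSF19 and 3 tested neighbours by distance in Mb. The match lies at -312 bp, inside the longer transcripts and upstream of the shorter ones, and the neighbours lie between -0.04 and 0.13.

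The pathway genes were then described in 9 lists, fitted with all genes. They held 123 genes in the table, of which 87 were tested, and 0 passed both cut-offs by edgeR, beside 0.719% of all tested genes. An unadjusted p under 0.05 was reached by 18 of them, beside 11.1% of all tested genes. By adjusted p alone, 5 passed (1 lower and 4 higher), beside 2.69% of all tested genes, and 19 with the replicate block (5 lower and 14 higher), beside 10.0%. All 5 were in the list of NF-kB target genes, of which 15 of 17 were tested. The lists were chosen with earlier results of these data known. Counts, medians and p-values of their genes are therefore a description and no independent support.

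**Figure D4:**
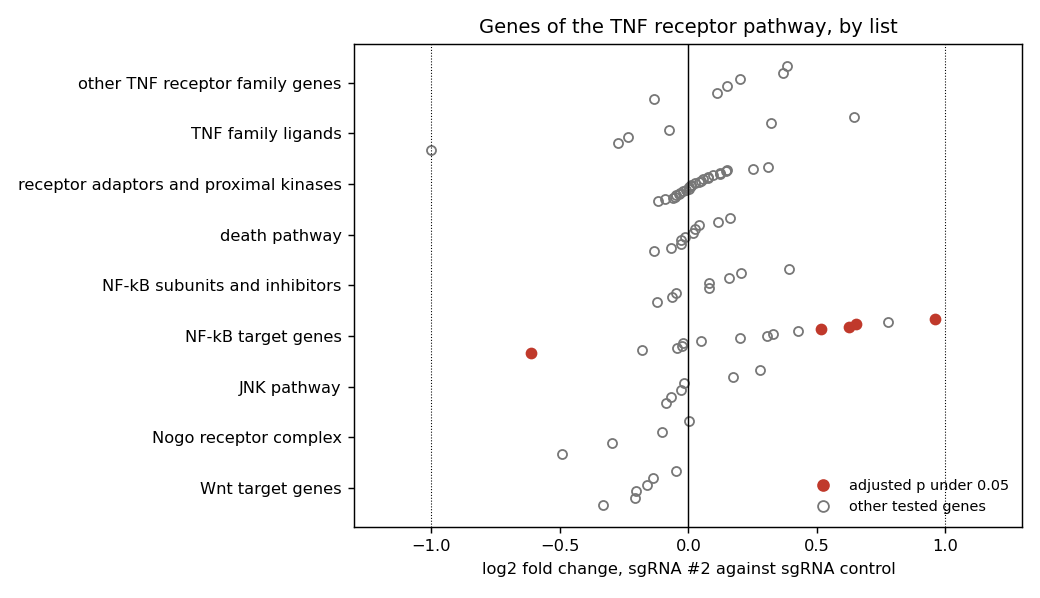
Log2 fold change of each tested gene of the 9 pathway lists; filled points passed an adjusted p under 0.05 by edgeR without a block and dotted lines mark an absolute log2 fold change of 1. The 5 filled points are in the NF-kB target row, 4 above 0 and 1 below.

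Of the ligands, 6 of 18 were tested and none passed. With the replicate block, 4 passed by adjusted p alone, beside 10.0% of all tested genes, a share that also stands beside the block counts of the lists below. CD70, TNFSF9 and EDA had log2 fold changes below 0 and TNFSF15 (0.65) above 0. The groups of TNFSF15 overlapped, and its adjusted p was 0.350 by edgeR without the block. TNF itself had 0 counts in all 6 libraries. The most abundant per length were CD70 (71.2 ± 8.99 against 60.3 ± 5.16 CPM per kb) and TNFSF9 (39.2 ± 3.78 against 32.3 ± 0.884 CPM per kb), neither of them past the threshold (adjusted p = 0.335 and 0.125 by edgeR). EDA, the ligand ectodysplasin, had 25, 24 and 28 counts in the control and 7, 19 and 10 with sgRNA #2. Its groups did not overlap, but 1 sgRNA #2 library was close to the control, and its log2 fold change of -1.001 (SE 0.327) had an adjusted p of 0.159 by edgeR. Without sgRNA #2 replicate 2, EDA passed both cut-offs at a log2 fold change of -1.48. EDA, TNF and TNFSF15 here, and TNFRSF9, BIRC3, MAP3K14 and NFKB2 in the next lists, were named after their values were seen.

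The other receptors of the family gave 0 of 6 tested genes past the adjusted p, and 1 with the block, TNFRSF9, the T cell costimulator 4-1BB (log2 fold change 0.37, adjusted p = 0.0837 by edgeR without the block). The most abundant per length of that list were EDA2R (15.7 ± 0.529 CPM per kb in the control) and RELT (9.70 ± 0.467 CPM per kb). The adaptors and proximal kinases, 26 of 26 tested, gave 0, with log2 fold changes of -0.12 to 0.31 and a median of 0.02, and 2 passed with the block, BIRC3 (0.31) and MAP3K14 (0.25), an inhibitor of apoptosis and the kinase NIK. EDARADD and FADD, the adaptors of the ectodysplasin and death receptors, were the most abundant per length, at 120 ± 2.34 and 91.5 ± 2.16 CPM per kb in the control.

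The death pathway list had 0 of 10 tested genes past the adjusted p, with log2 fold changes of -0.14 to 0.16. DIABLO and BID, which act at the mitochondrion, had the highest levels per length (68.0 ± 2.16 and 35.9 ± 2.55 CPM per kb in the control). The NF-kB subunits and inhibitors gave 0 of 8, with NFKBIA and NFKBIB, inhibitors of NF-kB, the highest per length (100 ± 2.04 and 66.0 ± 4.11 CPM per kb), and 1 passed with the block, NFKB2 (log2 fold change 0.39), the subunit of the alternative route. The JNK list gave 0 of 6, with JUN at 57.5 ± 8.56 and MAP2K4 at 30.9 ± 2.89 CPM per kb in the control.

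Of the Nogo receptor complex, in which TNFRSF19 can act, 4 of 7 genes were tested and 0 passed, and 1, RTN4RL2, passed with the block. Log2 fold changes ran from -0.49 to 0.00. The groups of 2 of the 4 did not overlap, RTN4R and RTN4RL2, both lower, beside 8.83% of all tested genes. RTN4R, named after its values were seen, had the largest change (-0.49, SE 0.194, adjusted p = 0.289 by edgeR without the block). RTN4, which encodes Nogo, was at 168 ± 8.57 CPM per kb in the control and 168 ± 10.3 CPM per kb with sgRNA #2, and RTN4RL2 at 142 ± 17.6 and 116 ± 7.96 CPM per kb (log2 fold change -0.30, adjusted p = 0.0714 by edgeR). The Wnt target list, of interest because TNFRSF19 is a Wnt target in other tissues, had 6 of 10 tested and 0 past the threshold. All 6 had a log2 fold change below 0, beside 6535 of the 13356 tested genes. The range was -0.33 to -0.05, with a median of -0.18. The groups overlapped in all 6, and 0 had an unadjusted p under 0.05 by edgeR. ZNRF3 and RNF43, both negative regulators of Wnt signalling, were the most abundant, at 10.7 ± 0.319 and 10.5 ± 1.205 CPM per kb in the control.

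NF-kB target genes had a median log2 fold change of 0.31, against 0.00 over all tested genes. Of the 15 tested, 10 lay above 0 and 5 below, beside 6821 and 6535 of all tested genes. Those below were TNFAIP2, ICAM1 (-0.18), TNIP1 (-0.04), SOD2 (-0.03) and IRF1 (-0.02), all but TNFAIP2 named after their values were seen. With the block, 10 of the 15 passed by adjusted p alone (1 lower and 9 higher). Over all tested genes the share was 10.0% in either direction and 3.97% higher. This list too was chosen with earlier results of these data known, so its values and p-values are a description. CXCL8, the neutrophil chemokine IL-8, had 219, 233 and 178 counts in the control and 400, 476 and 288 with sgRNA #2. All 3 sgRNA #2 libraries lay above the control, and CXCL8 rose by a log2 fold change of 0.96 (SE 0.144, adjusted p = 5.50e-04 by edgeR). PTGS2, the prostaglandin synthase COX-2, had 271, 298 and 354 counts in the control and 525, 428 and 411 with sgRNA #2, and rose by 0.65 (log2, SE 0.0849, adjusted p = 1.12e-04 by edgeR). PTGS2 overlaps an antisense transcript, PACERR.

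CXCL1, a neutrophil chemokine, had 396, 405 and 328 counts in the control and 689, 592 and 381 with sgRNA #2, and rose by 0.63 (log2, SE 0.139, adjusted p = 0.0169 by edgeR). CXCL2, a related chemokine named after its values were seen, had 197, 208 and 173 counts in the control and 299, 263 and 220 with sgRNA #2, and rose by 0.51 (log2, SE 0.117, adjusted p = 0.0195 by edgeR). The highest values in both genes were in sgRNA #2 replicate 1 and the control and sgRNA #2 ranges did not overlap in CPM. For CXCL1 the gap was narrow (62.9 in the highest control against 63.3 CPM in the lowest sgRNA #2 library), and its raw counts overlapped. CXCL1 had an adjusted p of 0.283 by DESeq2 and of 0.0682 without control replicate 3, and its call was also lost without sgRNA #2 replicate 1 or 2, while CXCL2 lost its call without control replicate 3 (0.105), without sgRNA #2 replicate 1 (0.116) or without sgRNA #2 replicate 2 (0.0618), all by edgeR.

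TNFAIP2, a TNF-induced gene whose product acts in membrane protrusion and exocytosis, was the most abundant per length of the list (159 ± 16.9 CPM per kb in the control). It had 4406, 5914 and 5328 counts in the control and 3460, 3360 and 2802 with sgRNA #2, every sgRNA #2 library below every control library. It fell by 0.61 on the log2 scale (SE 0.0746, adjusted p = 5.23e-05 by edgeR). Antisense transcripts overlap it, and the strand setting of the counting is not given in the sources used here. IER3, an early response gene and the next most abundant, was at 82.1 ± 7.32 and 103 ± 13.1 CPM per kb (log2 fold change 0.33, adjusted p = 0.0588 by edgeR), and it passed with the block (adjusted p = 6.10e-08 by edgeR).

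**Figure D5:**
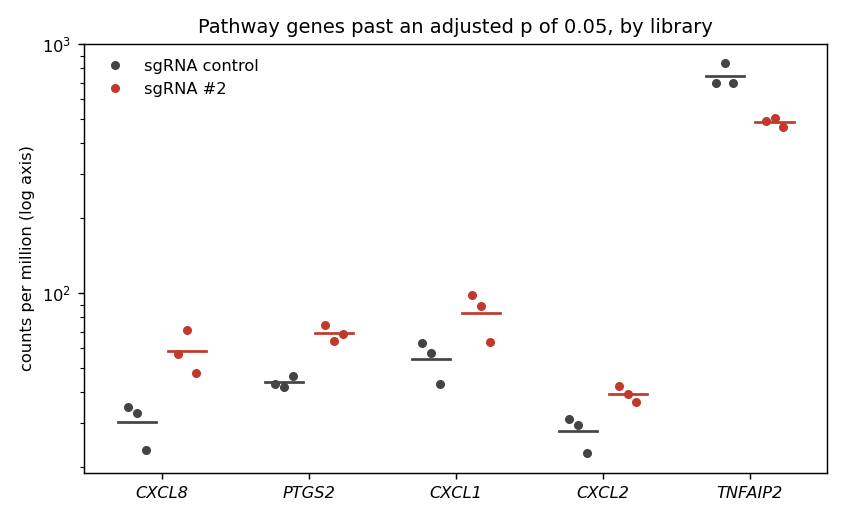
CPM, on a log axis, of the 5 pathway genes past an adjusted p under 0.05, in each library; bars mark group means. CXCL8, PTGS2, CXCL1 and CXCL2 lie higher and TNFAIP2 lower in the sgRNA #2 libraries, without overlap, though for CXCL1 only by a narrow gap.

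The genes whose log2 CPM followed that of TNFRSF19 most closely over the 6 libraries were CEP164 (Pearson r = 0.998), ZBTB3 (0.998), WHSC1 (0.997), KREMEN1 (0.996) and FDFT1 (0.994). The correlation is a description over 6 libraries that fall into 2 groups, so it mostly restates the group difference. CEP164, a centriole protein, was at 48.5 CPM in the control and 9.32 CPM with sgRNA #2. FDFT1, the squalene synthase, was at 204 and 35.4 CPM. ZBTB3 was at 8.48 and 6.80 CPM, a smaller difference in size. WHSC1, a histone methyltransferase, was at 266 and 158 CPM, and KREMEN1, a receptor for the Wnt inhibitor Dickkopf, was at 35.3 and 18.6 CPM. Of the 5, 2 passed both cut-offs.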

How the data were processed

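RNA-seq of 3 sgRNA control and 3 sgRNA #2 libraries was analysed. Raw counts of reads, listed by gene symbol, were deposited by the authors after counting with HTSeq. The submitters' processing notes also name Trim Galore, FastQC, Bowtie2 2.3.3.1, SAMtools, Picard and hg38. The annotation and strand setting are not given in the sources used here. Summary lines (no feature 19.7% to 21.1%) were left out. Counts were tested with edgeR 4.0.16 (R 4.3.3; TMM, glmQLFit and glmQLFTest, Benjamini-Hochberg) over the 13356 genes that reached 10 counts in 3 or more libraries, without a block, with the study's cut-offs. On simulated data 200 of 200 changed genes were recovered with 1 false call. Recovery of log2 fold changes under 1 or just above it, of genes with few counts, or with paired replicates, was not tested. Same-numbered libraries deviated together (correlations 0.269, 0.287 and 0.291), but differently numbered libraries were not set beside them. The replicate number may therefore pair the libraries, which the labels do not state. The main fit ignored any such pairing, and a block was fitted as an alternative. The study calls the triplicates biologically independent. Replicates differed by more than sampling noise (chi-square per degree of freedom 2.72 to 3.61).

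Gene positions and lengths came from GENCODE 44 and names from RefSeq: 24480 of 26485 symbols matched, 1319 of them through an older symbol. Levels between genes are CPM per kb of the Ensembl canonical transcript. The guide sequence came from the study's designed guides and site sequences from hg38. The receptors and gene lists were chosen with earlier results of these data known. Named were the 10 receptors, in each list up to 4 genes with the smallest adjusted p under 0.05 and the 2 most abundant in the control, tested neighbours, and the 5 genes most like TNFRSF19. Alternatives were DESeq2 1.42.0, other size factors, other count filters, the block, adjusted p alone and leaving out each library. Some genes of the neighbour and marker lists are not reported here.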

Additional observations from a re-analysis of the deposited data

How the results depend on the processing

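Without any 1 of the libraries, the log2 fold change of TNFRSF19 ran from -2.46 to -2.24, a description of values it was selected on. With the replicate block it was -2.34, and 122 genes passed both cut-offs in place of 96. Among them were 1 receptor, 0 pathway genes and 0 neighbours, the same counts as without the block. With adjusted p alone, 359 genes and 5 pathway genes passed; with the block as well, chosen after seeing the data, 1339 genes, 3 receptors, 19 pathway genes and 0 neighbours passed. The edgeR prior degrees of freedom were infinite with the block and 13.01 without it; the cause of the larger counts was not tested. Requiring 10 counts in every library left 63 genes called. Without any 1 library, 78 to 106 genes and 0 to 2 pathway genes passed: CXCL8 without control replicate 1 (1.07), control replicate 2 (1.03) or sgRNA #2 replicate 3 (1.09), CXCL3, named after its values were seen, without sgRNA #2 replicate 3 (1.04) and EDA without sgRNA #2 replicate 2 (-1.48). With no count filter 1 pathway gene passed, EDA (-1.001). A match of 12 PAM-proximal bases was found for 0 receptors. The log2 fold changes of FAS (-0.13 to 0.05), TNFRSF10D (-0.02 to 0.09), TNFRSF12A (-0.05 to 0.15) and TNFRSF1A (-0.07 to 0.00) changed sign between alternatives. With 11 to 14 counts of TNFRSF19 in the sgRNA #2 libraries, depth limits the precision of its fold.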
